A study of Homo sapiens with 12 samples.

Results

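SKM1 cells given 5-azacytidine alone were compared with untreated SKM1 cells, which uses 6 of the series' 12 arrays. SKM1, an established line, grew from human myeloid leukaemia cells, and each sample is RNA of this line on 1 Affymetrix whole-transcript array. The groups had 3 arrays each: 5-azacytidine (AZA), both drugs together (APR-AZA), APR-246, a thiol-reactive compound, alone (APR) and no treatment (NT), with each drug at its IC50 and RNA taken at 18 h. Every row of the table with 1 gene symbol entered, which gave 28125 genes, and AZA was set against NT gene by gene. All groups are this line and the labels name no genetic change, so nothing here speaks of other leukaemias. Separate cultures are not stated for the 3 arrays of a group, so a p-value here reflects only how far these arrays differed, which can be technical.

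5-Azacytidine is a cytidine analogue used in myelodysplastic syndrome and acute myeloid leukaemia. Nucleoside transporters carry it into the cell and uridine-cytidine kinase phosphorylates it. Most of it then enters RNA, and the part reduced by ribonucleotide reductase enters DNA, where it traps DNA methyltransferases. Within cells, shortage of amino acids or other stress phosphorylates the initiation factor eIF2, and the factor ATF4 is then translated and switches on genes of amino acid supply. NRF2 is the main activator of genes against oxidative and electrophilic stress. MYC drives genes of ribosome synthesis and growth, and MYB, GFI1 and the C/EBP factors set the early granulocytic programme of myeloid progenitors.

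The signal of a gene is a log2 value made by RMA, in which quantile normalization sets all arrays to a common distribution and low signals are compressed, so folds of dim genes are understated. Where values are given for each array, the groups did not overlap unless it is said that they did. Over all genes tested, 15.1% had every AZA array above every NT array and 17.0% had every one below. Genes said to rise or fall were called at an adjusted p under 0.05. Array medians lay between 4.69 and 4.78. Of 14 myeloid blast markers 13 were measured, with a median NT signal of 8.17 and 10 of them above 7. Markers of T cells, B cells, erythroid cells, megakaryocytes, fibroblasts and endothelium stayed below 7 in NT, and of the epithelial markers only EPCAM exceeded it, at 9.45 in AZA and 9.67 in NT. Fewer cells of a kind and less RNA per cell cannot be told apart in such samples, and neither viability nor cell number was used.

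With AZA, 2754 genes (9.79% of those tested) were called higher and 3124 (11.1%) lower, where a call is an adjusted p under 0.05 in limma over all genes. Of these, 502 (1.78%) were higher and 406 (1.44%) were lower by at least 2-fold. Large rises outnumbered large falls: 96 genes rose and 31 fell at least 4-fold, 37 rose and 4 fell at least 8-fold, and 11 rose and 1 fell at least 16-fold. Most calls were small, since 53.7% of the calls higher and 54.3% of the calls lower were under 1.5-fold. The median change of all genes was -0.0037 on the log2 scale, and the median SE of a change was 0.11.

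Whether a gene was called moved with its signal. Ordered by mean signal in 5 bins of equal size, 1.23%, 3.24%, 10.6%, 40.2% and 49.3% of genes were called, from dimmest to brightest. In the brightest bin 22.3% were called higher and 27.0% lower, so counts over a list of well expressed genes need to be read against those shares too. That bin starts at a mean signal of 7.79. In the next bin, down to 5.48, the shares were 18.9% higher and 21.3% lower. The middle bin, down to 4.25, had 5.44% higher and 5.12% lower. Lists below without a printed share need to be read against these. Of 17807 protein coding genes 2330 were called higher and 2854 lower, whereas of 7313 lncRNA genes, which had a median signal of 3.74, 263 were higher and 170 lower.

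The largest rises were in genes of many kinds. CLDN1, a tight junction protein, led with 11.14, 10.88 and 10.50 in AZA, against 4.56, 4.60 and 4.76 in NT, a change of 6.20 ± 0.15 (SE). The other 9 of the 10 largest were BET1-AS1, DDIT4, ORM1, LUCAT1, C5AR1, P3H2, CD101, PPP1R17 and S100P. THBS1, the matrix glycoprotein thrombospondin-1, ranked next with 10.14, 10.21 and 10.15 in AZA, against 5.95, 6.32 and 6.19 in NT, so it was 16.1-fold higher (adjusted p = 3.2e-10). ITGAX, the integrin chain CD11c of monocytes and dendritic cells, had signals of 9.91, 9.84 and 9.64 in AZA, against 6.12, 5.71 and 6.01 in NT. FERMT3 encodes kindlin-3, which activates integrins in blood cells, and its signals were 9.74, 9.83 and 9.87 in AZA, against 6.44, 6.34 and 6.22 in NT. These 2 partners in adhesion rose by 3.85 and 3.48 on the log2 scale.

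OLR1 and CLEC7A encode lectin receptors, LOX-1 for oxidised lipoprotein and dectin-1 for fungal glucan. OLR1 had 10.37, 10.02 and 9.91 in AZA, against 6.07, 6.59 and 6.72 in NT. CLEC7A had 8.06, 7.80 and 7.78 in AZA, against 4.43, 4.36 and 4.65 in NT. Both rose, by 3.64 ± 0.16 (SE) and 3.40 ± 0.13 (SE). TFPI2, a Kunitz-type protease inhibitor, stood at 9.07, 8.70 and 8.79 in AZA, against 5.25, 5.49 and 4.97 in NT, 12.3-fold higher (adjusted p = 3.5e-09). ADGRG3, an adhesion G protein-coupled receptor of granulocytes also known as GPR97, was 11.1-fold higher. DCSTAMP, which osteoclasts need to fuse, was 11.4-fold higher, and MEIKIN, a kinetochore protein of meiosis, 11.6-fold. The rise of TM6SF1 was 3.59 ± 0.12 (SE), that of the pseudogene NMRAL2P 3.73 ± 0.14 (SE) and that of the antisense RNA DLGAP1-AS2 3.75 ± 0.19 (SE). In all 25 genes with the largest rises every AZA array lay above every NT array, as the rule for naming them required.

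Among genes that were already bright without the drug, with a mean of at least 10 in NT, the 10 largest rises were smaller. CD55, which shields cells from complement, had 11.85, 11.82 and 11.74 in AZA, against 10.39, 10.30 and 10.50 in NT. PEA15, a phosphoprotein that binds ERK and death-domain proteins, rose by 1.35 ± 0.07 (SE). SPP1, the secreted matrix protein osteopontin, had 12.45, 12.50 and 12.48 in AZA, against 11.34, 11.24 and 11.31 in NT, and rose by 1.18 ± 0.07 (SE). OGFRL1 rose by 1.28 ± 0.08 (SE). The other 6 were PSAT1, PHGDH, PGD, SLC3A2, AARS1 and MTHFD2, which serve amino acid supply, tRNA loading and NADPH supply.

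TYROBP, which encodes the signalling adaptor DAP12 and was on the list of myeloid blast markers, had a mean of 10.49 in AZA and 7.14 in NT (3.35, SE 0.09). The related adaptor FCER1G, the common Fc receptor gamma chain, stood at 11.71 in AZA and 10.82 in NT. In the opposite direction CD38, an ectoenzyme that breaks down NAD, had a mean of 5.41 in AZA and 7.41 in NT (-2.003, SE 0.11). Of the 13 blast markers measured 5 were called higher and 7 lower, and their mean over an array was 8.60 to 8.67 in AZA and 8.78 to 8.81 in NT.

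**Figure D1:**
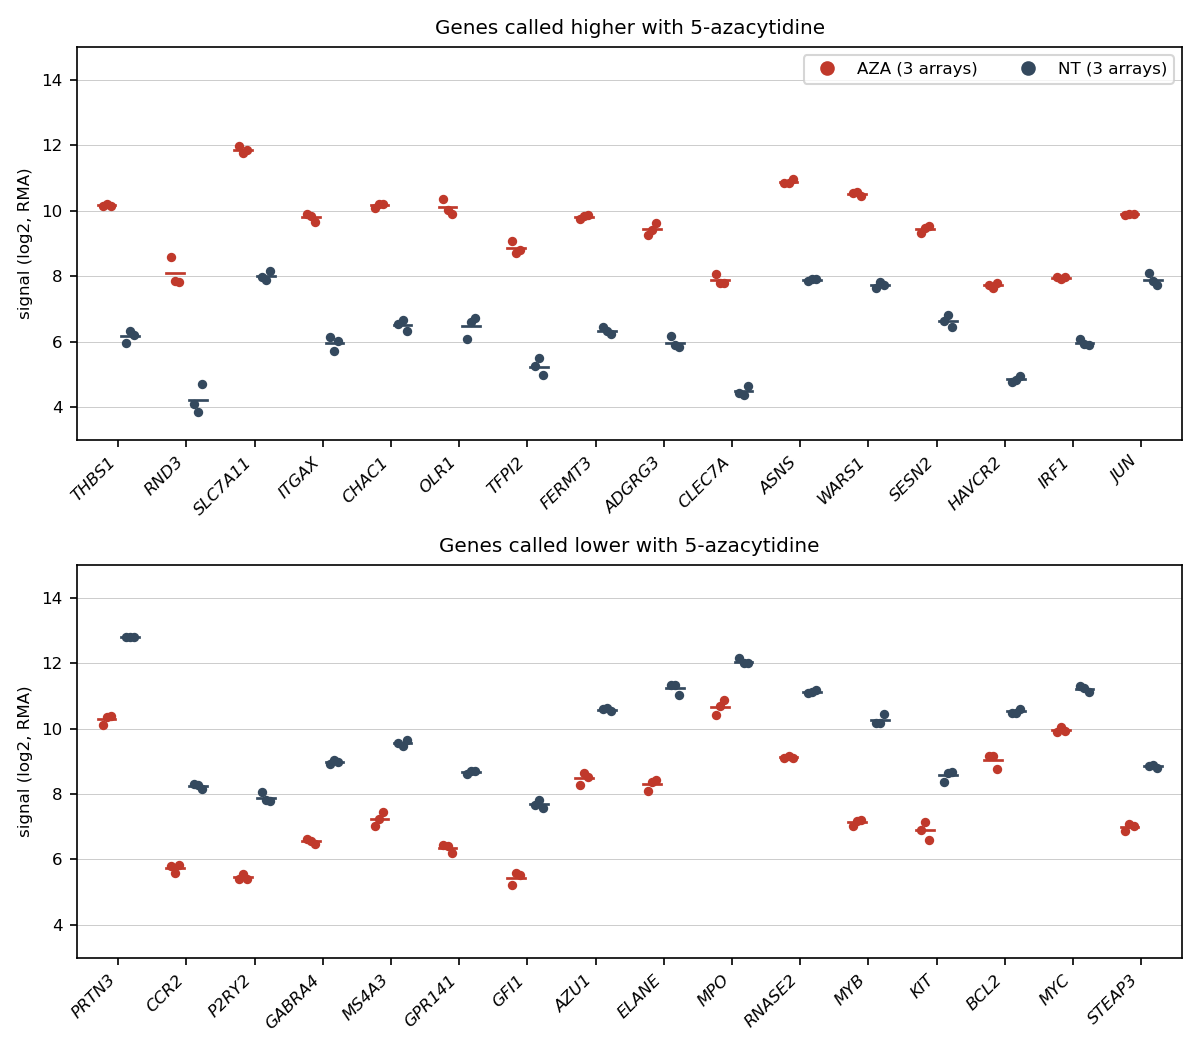
Log2 signal of 32 genes in each array, with 3 points for AZA (red, left) and 3 for NT (dark, right) and a line at each group's mean. The upper genes were called higher and the lower genes called lower with AZA, and in none of the 32 do the groups overlap. For genes taken from the largest changes the naming rule required groups without overlap, so the gap there follows from the choice. Over all genes tested, 15.1% had every AZA array above every NT array and 17.0% had every one below.

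BTLA, an inhibitory receptor of lymphocytes, fell most, with 4.04, 3.88 and 4.28 in AZA, against 8.12, 8.26 and 8.57 in NT (-4.25, SE 0.13). The long non-coding RNA gene LOC105375878, the transcription factor MYB and the death ligand TNFSF10 came next, at -3.73, -3.12 and -3.07. PRTN3, the granule protease proteinase 3 and an autoantigen, had 10.10, 10.36 and 10.39 in AZA, against 12.80, 12.81 and 12.80 in NT, 5.75-fold lower. CCR2, the receptor of the monocyte attractant CCL2, had 5.80, 5.59 and 5.84 in AZA, against 8.31, 8.27 and 8.17 in NT. P2RY2, a receptor of extracellular ATP and UTP, had 5.39, 5.55 and 5.41 in AZA, against 8.08, 7.82 and 7.77 in NT. These receptors fell by 2.50 and 2.44 on the log2 scale (adjusted p = 5.8e-10 and 2.3e-08).

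GABRA4, a subunit of the GABA type A receptor, had 6.63, 6.57 and 6.49 in AZA, against 8.90, 9.05 and 8.99 in NT. MS4A3, a membrane protein of granulocyte and monocyte progenitors, had 7.03, 7.22 and 7.44 in AZA, against 9.56, 9.46 and 9.65 in NT. GPR141, an orphan receptor, was 4.96-fold lower, and MCOLN2, a cation channel of endosomes and lysosomes, 4.51-fold. STAR carries cholesterol into mitochondria and CPM is a carboxypeptidase of the cell surface; they were 4.38-fold and 4.26-fold lower. The homeobox gene ESX1 was 4.76-fold lower, SHISA2 5.01-fold and the long non-coding RNA LINC01133 5.22-fold. LOC107985743 was the least even of the 25 deepest falls, with 4.27, 5.54 and 3.03 in AZA, against 6.52, 5.99 and 6.67 in NT, and its SE of 0.45 was the widest among them.

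Falls among bright genes, those with a mean of at least 10 in AZA, held SCD, the stearoyl-CoA desaturase, with 10.69, 10.54 and 10.56 in AZA, against 11.78, 11.65 and 11.82 in NT. PLAC8, a cysteine-rich protein of myeloid cells, fell by 1.14, CNN2, an actin-binding calponin, by 1.06, and TOMM5, a subunit of the mitochondrial import pore, by 1.01 on the log2 scale. IL6R, the interleukin-6 receptor, had 10.03, 9.99 and 10.02 in AZA, against 11.02, 10.90 and 10.92 in NT. MEF2D, a MADS-box factor active in leukaemia, and SKP2, the ubiquitin ligase subunit that marks the inhibitor p27 for breakdown, fell by 0.93 and 0.93.

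All 8 measured transcription factors of the integrated stress response were called higher, with a median change of 1.34 against -0.0037 for all genes. ATF4 itself had 8.55, 8.45 and 8.42 in AZA, against 7.71, 7.37 and 7.39 in NT, a change of 0.98 ± 0.11 (SE). Its partner and target DDIT3, also called CHOP, had 5.52, 5.54 and 5.48 in AZA, against 4.26, 4.15 and 3.94 in NT. DDIT3 lay well apart in the groups, and so did the next pair. ATF5, a relative of ATF4, had 7.67, 7.58 and 7.89 in AZA, against 5.79, 5.61 and 5.62 in NT. TRIB3, a pseudokinase that dampens ATF4, had 8.30, 8.38 and 8.38 in AZA, against 6.01, 6.42 and 5.93 in NT, and was 4.69-fold higher. The median signal of 12 kinases, phosphatase subunits and factors of eIF2 was 9.17. In that brightest range 22.3% of all genes were called higher and 27.0% lower. Of the 12 members 2 were called higher and 4 lower. The higher ones were the phosphatase subunits that restore eIF2, PPP1R15A with 1.27 ± 0.10 (SE) and PPP1R15B with 0.65 ± 0.07 (SE). The lower ones were EIF2B1 and EIF2B3, subunits of the exchange factor that recharges eIF2, at -0.46 and -0.43, with EIF2S1 at -0.34 and the kinase EIF2AK1 at -0.28.

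Most genes of amino acid import and synthesis were higher. Of 12 transporters 9 were called higher and the other 3 were not called, with a median of 0.91. SLC7A11, which imports cystine for glutathione, had 11.98, 11.76 and 11.85 in AZA, against 7.98, 7.87 and 8.15 in NT, 14.5-fold higher. SLC3A2, the heavy chain that SLC7A11 and SLC7A5 need at the membrane, had 11.32, 11.52 and 11.56 in AZA, against 10.21, 10.05 and 9.95 in NT. SLC1A5 and SLC6A9, which carry glutamine and glycine, rose by 1.05 ± 0.10 (SE) and 1.02 ± 0.18 (SE). In each of these 4 the AZA and NT arrays did not overlap, as the naming rule required of SLC7A11.

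Of 15 enzymes 10 were called higher and 3 lower, with a median of 0.74. ASNS, asparagine synthetase, had 10.85, 10.83 and 10.96 in AZA, against 7.84, 7.91 and 7.92 in NT. CTH, which makes cysteine from cystathionine, had 9.42, 9.38 and 9.57 in AZA, against 6.49, 6.73 and 6.66 in NT. CHAC1, which breaks down glutathione, had 10.10, 10.20 and 10.20 in AZA, against 6.52, 6.67 and 6.31 in NT. ASNS, CTH and CHAC1 were 7.95-fold, 7.11-fold and 12.7-fold higher. Among enzymes of folate metabolism, the mitochondrial ALDH1L2 (3.33, SE 0.11), MTHFD2 (1.16, SE 0.07) and SHMT2 (0.74, SE 0.09) rose, while the cytosolic MTHFD1 and SHMT1 fell, by 0.90 and 0.58. The third called lower was ALDH18A1, the first enzyme of proline synthesis (-0.70, SE 0.10). PSAT1 and PHGDH, which make serine from a glycolytic intermediate, had 12.04, 12.09 and 12.13 in AZA, against 10.36, 10.47 and 10.26 in NT for PSAT1 and 11.90, 12.04 and 12.06 in AZA, against 10.57, 10.40 and 10.13 in NT for PHGDH.

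The element that C/EBP and ATF4 dimers bind was looked for in promoters of these genes, and 4 promoters that hold a match are shown because their genes carry the stress and amino acid response. Each is 300 bases of RefSeq, build GRCh38.p14, 5′ to 3′ on the gene's strand, from 250 bases before the start to 50 after, with the match to TGATGNAAN or its reverse complement in capitals.
ASNS, chr7:97872359-97872658, minus strand: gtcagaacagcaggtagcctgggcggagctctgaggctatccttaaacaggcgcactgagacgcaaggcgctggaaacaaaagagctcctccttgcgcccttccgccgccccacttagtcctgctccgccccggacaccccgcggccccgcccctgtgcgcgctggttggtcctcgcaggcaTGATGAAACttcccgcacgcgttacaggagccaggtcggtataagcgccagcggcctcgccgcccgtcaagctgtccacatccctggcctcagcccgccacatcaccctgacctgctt
CHAC1, chr15:40953221-40953520, plus strand: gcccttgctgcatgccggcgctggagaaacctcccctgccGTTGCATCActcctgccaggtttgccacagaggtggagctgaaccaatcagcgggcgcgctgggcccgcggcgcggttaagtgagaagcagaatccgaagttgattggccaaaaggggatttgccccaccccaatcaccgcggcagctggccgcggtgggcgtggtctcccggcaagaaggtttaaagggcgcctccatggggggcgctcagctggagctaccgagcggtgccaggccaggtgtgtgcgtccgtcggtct
GOT1, chr10:99430575-99430874, minus strand: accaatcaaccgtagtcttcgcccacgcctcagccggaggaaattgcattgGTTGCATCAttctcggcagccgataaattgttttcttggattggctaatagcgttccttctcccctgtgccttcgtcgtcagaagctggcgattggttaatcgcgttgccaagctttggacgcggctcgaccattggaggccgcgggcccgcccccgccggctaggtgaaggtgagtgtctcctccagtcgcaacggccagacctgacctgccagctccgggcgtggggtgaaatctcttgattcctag
SLC7A1, chr13:29595639-29595938, minus strand: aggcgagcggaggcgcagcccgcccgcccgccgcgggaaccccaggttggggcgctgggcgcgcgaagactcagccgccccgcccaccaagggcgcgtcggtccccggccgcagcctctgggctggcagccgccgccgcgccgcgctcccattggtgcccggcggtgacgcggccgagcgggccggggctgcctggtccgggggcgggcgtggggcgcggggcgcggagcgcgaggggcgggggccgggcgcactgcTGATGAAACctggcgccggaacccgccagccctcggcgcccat
The matches in ASNS and SLC7A1 have the same letters, and so do those in CHAC1 and GOT1, which lie on the other strand. They start -68, -210 and -199 bases from the gene's start in ASNS, CHAC1 and GOT1, while in SLC7A1 the match lies 7 bases after it. The cationic amino acid transporter SLC7A1 rose by 0.94 ± 0.07 (SE) and the aspartate aminotransferase GOT1 by 0.32 ± 0.08 (SE), against 2.99 for ASNS and 3.66 for CHAC1. ATF3, SLC38A1 and SLC3A2 held a match too, with its first base at -191, -4 and 36 from the start. In all, 7 of 22 promoters (31.8%) of stress factors and amino acid genes called higher held a match on either strand, against 3.18% of all 19561 promoters. For 5191 genes RefSeq lists several starts. Only the first listed was used, so positions and shares depend on that choice. A match is a description of the letters and no proof of binding.

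Cytosolic and mitochondrial tRNA synthetases, which load amino acids on tRNA, went opposite ways. Of 19 cytosolic enzymes 11 were called higher and 3 lower, with a median of 0.49. Of 16 mitochondrial enzymes 1 was called higher and 9 lower, with a median of -0.31. WARS1, the cytosolic enzyme for tryptophan, had 10.53, 10.56 and 10.45 in AZA, against 7.64, 7.83 and 7.73 in NT. CARS1, for cysteine, had 9.67, 9.68 and 9.64 in AZA, against 7.67, 7.77 and 7.75 in NT. Its mitochondrial counterpart CARS2 had 7.85, 8.17 and 7.97 in AZA, against 8.75, 8.62 and 8.46 in NT. MARS1 rose by 1.44 ± 0.11 (SE) and its mitochondrial counterpart MARS2 fell by 1.06 (adjusted p = 1.2e-05); for asparagine, NARS1 rose by 0.27 and NARS2 fell by 0.91. The cytosolic enzymes that fell were the phenylalanine subunits FARSB and FARSA, at -0.62 and -0.52, and KARS1 at -0.39. WARS2, at 0.37, was the mitochondrial one that rose.

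Brakes on the growth kinase mTORC1 were mixed. DDIT4, which activates the TSC brake, was 27.7-fold higher, with 10.45, 10.60 and 10.63 in AZA, against 6.21, 5.66 and 5.44 in NT. The sestrins, sensors that hold mTORC1 back, differed in sign: SESN2 had 9.31, 9.46 and 9.53 in AZA, against 6.62, 6.81 and 6.46 in NT, SESN3 had 7.53, 7.43 and 7.13 in AZA, against 8.89, 8.88 and 9.10 in NT, and SESN1 fell by 0.44. SESN2 rose by 2.81 ± 0.10 (SE) and SESN3 fell by 1.59 (adjusted p = 8.2e-07). EIF4EBP1, which blocks the cap-binding factor, rose by 0.94 ± 0.11 (SE) and PDCD4, which blocks the initiation helicase, by 0.64, while the elongation factor kinase EEF2K fell by 0.70. In all 4 of 14 inhibitors were called higher and 3 lower, beside 22.3% and 27.0% in the brightest range. The median signals of the inhibitors, 8.06, and of the activators, 7.99, lie in that range. Of 12 activators, RRAGC was called higher and RRAGB, RRAGD and EIF4G1 lower, none by more than 0.63 in size; RRAGB and EIF4G1 each lost the call in 7 of 16 alternatives.

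**Figure D2:**
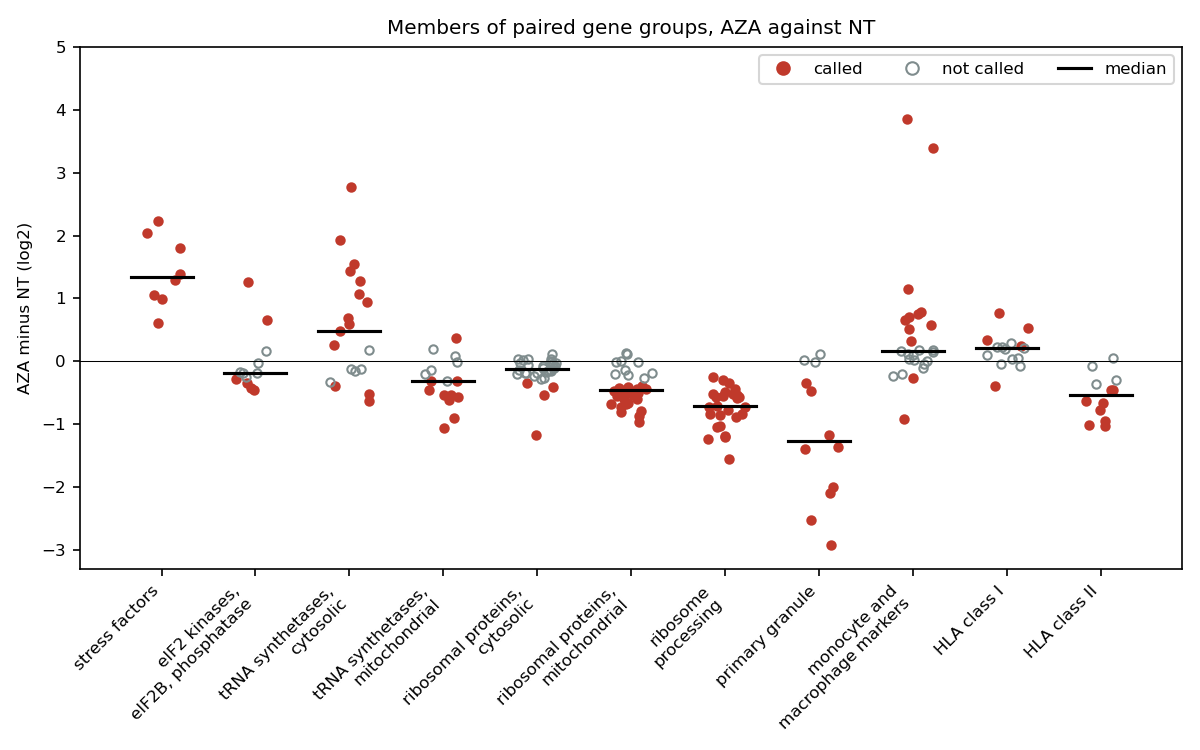
Change of each measured member, AZA minus NT in log2, for 11 gene groups; filled points were called, open points were not, and the bar is the group's median. Stress factors have a median of 1.34, the cytosolic synthetases 0.49 and the mitochondrial ones -0.31, and all 26 ribosome processing factors lie below 0.

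Many genes of the NRF2 pathway were higher. Of 7 regulators 6 were called higher, both activators and repressors. NFE2L2, which encodes NRF2, had 10.34, 10.09 and 10.18 in AZA, against 8.99, 9.20 and 9.19 in NT. KEAP1, which marks NRF2 for breakdown, rose by 0.68 ± 0.11 (SE) and BACH1, which competes for its sites, by 0.43 ± 0.10 (SE). The small MAF partners MAFG and MAFF rose by 1.05 and 0.90, and NFE2L1, a related factor of proteasome genes, by 1.43 ± 0.11 (SE).

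Of 18 targets 12 were called higher and 1, the export pump ABCC2, lower (-0.46). OSGIN1, a growth inhibitor induced by oxidative stress, had 7.76, 7.86 and 7.73 in AZA, against 5.58, 5.19 and 5.31 in NT. SRXN1, which repairs peroxiredoxins, had 8.43, 8.43 and 8.46 in AZA, against 6.29, 6.20 and 6.15 in NT. ME1, a cytosolic enzyme that makes NADPH, had 9.87, 9.74 and 9.63 in AZA, against 7.74, 7.74 and 8.05 in NT. PGD, an NADPH-making enzyme of the pentose phosphate path, was bright in both groups and rose by 1.42 ± 0.11 (SE). The haem oxygenase HMOX1 rose by only 0.48 ± 0.11 (SE), with a signal of 5.85 in AZA and 5.37 in NT.

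Iron and metal genes moved in both directions. FTL, the light chain of ferritin, had 12.87, 12.87 and 12.90 in AZA, against 12.14, 11.97 and 11.98 in NT. STEAP3, which reduces iron for uptake from the endosome, had 6.88, 7.10 and 7.03 in AZA, against 8.86, 8.89 and 8.78 in NT. SLC40A1, the iron exporter ferroportin, had 5.71, 5.62 and 5.78 in AZA, against 7.27, 7.16 and 7.22 in NT. Ferritin thus rose by 0.85 while STEAP3 and SLC40A1 fell by 1.84 and 1.51, and the iron sensor ACO1 and the transferrin receptor TFRC by 0.59 and 0.55 on the log2 scale. Of 9 metallothionein and zinc genes MT2A was called higher (1.25, SE 0.12) and MT1X (-1.02, SE 0.10) and the zinc carriers SLC39A10 and SLC30A1 lower, of which SLC30A1 lost its call in 2 of 16 alternatives. Metallothionein genes are close copies, so their signals may share RNA.

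MYC and the genes that make ribosomes were lower. MYC had 9.90, 10.04 and 9.91 in AZA, against 11.30, 11.23 and 11.12 in NT, 2.4-fold lower. Its partner MAX fell by 0.51, and MXD1, which competes with MYC for MAX, had 9.31, 9.17 and 9.08 in AZA, against 7.32, 7.55 and 7.31 in NT, a rise of 1.79 ± 0.09 (SE). The other 10 of 13 network members were not called.

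In ribosome biogenesis 35 of 41 measured genes were called lower, with a median of -0.59. Of 15 genes of RNA polymerase I and its factors 9 were called lower. POLR1G, a subunit specific to this polymerase, had 5.96, 6.22 and 6.13 in AZA, against 7.58, 7.47 and 7.40 in NT. POLR1B, its second largest subunit, had 7.22, 7.31 and 7.28 in AZA, against 8.58, 8.27 and 8.54 in NT. All 26 factors of processing and assembly were called lower, from -0.25 for the helicase DDX21 to -1.55 for UTP20. UTP20, which acts in early cleavage of the precursor, had 6.86, 7.13 and 6.99 in AZA, against 8.49, 8.50 and 8.66 in NT. NOC3L, an assembly factor of the large subunit, had 8.15, 8.42 and 8.28 in AZA, against 9.48, 9.40 and 9.53 in NT. NOC2L, its relative, was less even, with 5.42, 5.85 and 5.70 in AZA, against 6.98, 7.28 and 6.40 in NT, and its change was -0.49 in APR-AZA against APR.

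The genes for the proteins of the ribosome itself were mostly not called. Of 32 cytosolic ribosomal protein genes 4 were called lower, beside 11.1% of all genes and 27.0% in the brightest range, where their median signal of 8.81 lies. Their median change was -0.125. They were RPL7 (-1.18), RPS14 (-0.53), RPL6 (-0.41) and RPS15 (-0.35). The RPS14 arrays overlapped, with 7.997, 8.72 and 8.12 in AZA, against 9.01, 8.87 and 8.54 in NT, and its call was lost in 8 of 16 alternatives, while RPL6 lost its call without NT array 2. Many such genes have processed copies in the genome, which makes their signals less certain. Of 32 mitochondrial ribosomal protein genes, by comparison, 22 were called lower, with a median of -0.46. MRPL4 had 8.03, 8.20 and 8.16 in AZA, against 9.15, 9.15 and 8.96 in NT. MRPS17 had 8.04, 8.10 and 7.93 in AZA, against 8.93, 8.87 and 8.87 in NT. The large subunit gave 14 of 16 and the small subunit 8 of 16.

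Many genes for making polyamines, pyrimidines and sterols were lower as well. SRM, spermidine synthase, had 11.08, 11.25 and 11.37 in AZA, against 12.41, 12.47 and 12.44 in NT. ODC1, the first enzyme of the polyamine path, had 10.37, 10.57 and 10.62 in AZA, against 11.35, 11.26 and 11.23 in NT. AMD1 and SMS, its other makers, fell by 0.74 and 0.72, while SAT1 and SMOX, which break polyamines down, rose by 0.94 ± 0.13 (SE) and 0.86 ± 0.15 (SE). So the 4 called lower of 10 were makers and the 2 called higher were breakers.

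Of 7 enzymes of pyrimidine synthesis 5 were called lower, with a median of -0.38. DHODH, the mitochondrial step, had 7.69, 7.96 and 8.03 in AZA, against 9.38, 9.32 and 8.996 in NT. CAD and UMPS, which catalyse the steps before and after it, fell by 0.71 and 0.70, and DUT and CTPS2 by 0.38 and 0.26. The call of DUT was lost in 6 of 16 alternatives.

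In sterol synthesis 14 of 16 enzymes were called lower, with a median of -0.90. DHCR7, the last step to cholesterol, had 7.54, 7.61 and 7.54 in AZA, against 9.44, 9.32 and 9.24 in NT. MSMO1 had 8.88, 8.86 and 8.84 in AZA, against 10.07, 10.10 and 10.19 in NT. Regulators were mostly uncalled: SREBF1, SREBF2, SCAP, INSIG2 and NR1H3 did not pass, and the sterol-induced INSIG1 and MYLIP fell by 0.86 and 0.52. ABCA1, which exports cholesterol, rose by 0.54 ± 0.12 (SE).

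The 19 measured folding and quality control genes of the endoplasmic reticulum had a median signal of 9.87. In that brightest range 22.3% of all genes were called higher and 27.0% lower. Of the 19 members 7 were called higher and 8 lower. Among those lower, SDF2L1 had 7.04, 7.20 and 7.14 in AZA, against 8.60, 8.60 and 8.30 in NT and MANF 7.93, 8.05 and 7.82 in AZA, against 9.11, 8.95 and 8.94 in NT. Among those higher, EDEM1, which marks misfolded glycoproteins for degradation, had 10.30, 10.31 and 10.32 in AZA, against 8.98, 8.89 and 9.06 in NT, and ERN1, the sensor IRE1, rose by 1.24 ± 0.10 (SE). In the cytosol 8 of 16 genes were called lower, among them HSPA4L (-1.19, SE 0.08), FKBP4 (-0.83) and HSPB1 (-0.73), and DNAJB4 alone was called higher (0.82, SE 0.15). The median signal of these 16 genes, 10.16, lies in the brightest range too.

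Genes of DNA methylation, the process 5-azacytidine acts on, were mostly not called. DNMT1, the maintenance methyltransferase, had 10.28, 10.28 and 10.24 in AZA, against 10.38, 10.43 and 10.50 in NT; the groups did not overlap, but the change of -0.17 ± 0.07 (SE) did not pass the test. Of the 20 measured genes 4 were called higher and 2 lower, beside 22.3% and 27.0% in the brightest range of all genes. DNMT3A rose by 0.39 ± 0.09 (SE) and DNMT3B had a change of -0.33 ± 0.11 (SE), just inside the threshold, and lost its call in 10 of 16 alternatives. TET2, which oxidises methylcytosine, had 8.97, 8.86 and 8.64 in AZA, against 8.27, 8.22 and 8.48 in NT, and TET1 and TET3 were not called. Among readers ZBTB38 and ZBTB4 rose by 0.84 and 0.45 and ZBTB33, which encodes Kaiso, fell by 0.50. The ZBTB4 arrays overlapped, and its call was lost in 7 of 16 alternatives.

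Of 9 genes for methylation of cytosine in RNA 5 were called lower, and the other 4 lay above 0 without a call. The median was -0.38, and -0.16 in APR-AZA against APR. Their median signal of 8.95 lies in the brightest range, where 27.0% of all genes were called lower. TRDMT1, the former DNMT2, which methylates tRNA and is also trapped by the drug, had 3.98, 3.98 and 3.90 in AZA, against 4.18, 4.37 and 4.49 in NT. These signals are low, below the median of 4.75 over all genes. NOP2, which methylates ribosomal RNA, had 8.76, 8.99 and 9.03 in AZA, against 9.62, 9.52 and 9.34 in NT. The reader and export adaptor ALYREF fell by 0.56, YBX1 by 0.42 and the methyltransferase NSUN2 by 0.38; YBX1 lost its call in 4 of 16 alternatives.

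Of 23 genes that handle the drug 3 were called higher and 6 lower. Their median signal of 8.43 lies in the brightest range, where 22.3% of all genes were called higher and 27.0% lower. SLC29A1, the main nucleoside transporter ENT1, had 8.87, 9.08 and 9.07 in AZA, against 9.91, 9.81 and 9.78 in NT. UCK2, the kinase that activates 5-azacytidine, had 10.07, 10.04 and 9.91 in AZA, against 10.65, 10.69 and 10.58 in NT. SLC29A1 and UCK2 fell by 0.82 and 0.64 (adjusted p = 6.1e-06 and 3.9e-05). SLC29A2 fell by 0.56 and the efflux pump ABCG2 by 0.80, while the pump ABCC1 rose by 1.20 ± 0.13 (SE). UCK1 was not called (0.16, SE 0.12), nor were the deaminase CDA (-0.05, SE 0.12), RRM1 (-0.0085, SE 0.07) and RRM2 (0.0027, SE 0.07). DCTPP1, which breaks down modified dCTP, fell by 1.04, NME1, a diphosphate kinase, by 1.22, and RRM2B, a ribonucleotide reductase subunit, rose by 0.65 ± 0.13 (SE).

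Of the genes that DNA methylation is known to silence, few were called. Of 30 cancer-testis and germline genes 1 was called higher, MAGEA4, with 4.57, 4.90 and 4.68 in AZA, against 4.20, 4.62 and 4.26 in NT, where the groups overlapped, and this call was lost in 9 of 16 alternatives. The lowest and highest changes among the 30 were -0.15 and 0.38, and their median was 0.03. Their median signal was 3.54, in the range where 3.24% of all genes were called. MAGEA1 had 5.64, 6.03 and 6.45 in AZA, against 5.93, 5.50 and 5.54 in NT, with 1 AZA array inside the NT range, and was not called.

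Interferon factors and some effectors were higher. The ligand gene IFNB1 had 3.49, 3.27 and 3.47 in AZA, against 3.22, 3.28 and 3.44 in NT, overlapped between the groups and was not called. IRF1 had 7.97, 7.90 and 7.97 in AZA, against 6.09, 5.92 and 5.89 in NT, 3.95-fold higher, and IRF7, the factor that amplifies type I interferon, rose by 0.999 ± 0.08 (SE). Of 21 effector genes 8 were called higher and 3 lower, with a median of 0.22. Their median signal of 5.13 lies in the range where 5.44% of all genes were called higher and 5.12% lower. IFI6 had 6.71, 6.80 and 6.54 in AZA, against 5.62, 5.55 and 5.68 in NT. IFITM1, which blocks viral entry, rose by 0.89 ± 0.11 (SE), and CMPK2, USP18 and IFITM2 fell, by 1.16, 0.64 and 0.60. ISG15, MX1, IFIT1 and IFI27, common markers of the interferon response, were not called.

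The 16 measured sensors and adaptors of nucleic acid had a median signal of 7.47. In that range 18.9% of all genes were called higher and 21.3% lower. Of the 16 members 4 were called higher: CGAS (0.72, SE 0.09), MAVS (0.56, SE 0.13), IFIH1 (0.44, SE 0.12) and DHX58 (0.42, SE 0.12). IFIH1 lost its call in 5 of 16 alternatives. STING1, the adaptor downstream of cGAS, was the one called lower, with 7.29, 7.44 and 7.54 in AZA, against 8.90, 8.82 and 8.58 in NT. So the sensor CGAS and its adaptor STING1 changed in opposite directions.

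Replication-dependent histone genes were higher in 13 of 20 cases, with a median of 0.47. H2BC8 had 7.18, 7.37 and 7.17 in AZA, against 4.91, 4.97 and 5.09 in NT. H3C1 had 9.54, 9.83 and 9.82 in AZA, against 7.87, 8.05 and 7.83 in NT. H4C1 rose by 1.19 ± 0.14 (SE). They are near-identical copies of each other and their messages normally lack a poly(A) tail, so single genes are uncertain. Among chromatin enzymes KDM6B, which removes the polycomb mark, had 8.51, 8.12 and 8.03 in AZA, against 6.40, 6.35 and 6.59 in NT. HDAC5 and KDM4A rose by 1.04 ± 0.13 (SE) and 0.99 ± 0.07 (SE). The 25 measured writers and erasers of this kind had a median signal of 8.85. In that brightest range 22.3% of all genes were called higher and 27.0% lower. Of the 25 members 12 were called higher and 6 lower. Among the lower members were the repressive methyltransferases EHMT2 (-0.74), SUV39H1 (-0.44) and SUV39H2 (-0.52). Polycomb genes called higher were EZH1, RING1, JARID2 and EZH2, by 0.27 to 0.56. EZH2 lost its call in 6 and RING1 in 2 of 16 alternatives.

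IL1B had 9.81, 9.75 and 9.75 in AZA, against 6.32, 6.42 and 6.44 in NT, 10.4-fold higher. CXCL8, the neutrophil attractant interleukin-8, had 12.06, 11.79 and 11.79 in AZA, against 8.70, 8.52 and 8.75 in NT. TNF had 9.20, 8.78 and 8.56 in AZA, against 6.49, 6.34 and 6.60 in NT. Of 24 ligands 7 were called higher and 1, the receptor antagonist IL1RN, lower (-0.25). IL6, IL10, CXCL10, CCL2 and CSF3 were among the 16 not called. The median signal of the ligands, 4.91, lies in the range where 5.44% of all genes were called higher and 5.12% lower. Of 14 subunits and feedback genes of NF-kB 10 were called higher. TRAF1 had 7.35, 7.27 and 7.39 in AZA, against 5.02, 5.17 and 4.96 in NT, and the p100 subunit gene NFKB2 rose by 1.38 ± 0.09 (SE).

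Immediate early factors were called higher in 12 of 22 cases. JUN had 9.86, 9.91 and 9.90 in AZA, against 8.11, 7.84 and 7.73 in NT. KLF6 had 10.53, 10.49 and 10.45 in AZA, against 8.63, 8.75 and 8.59 in NT. JUND rose by 1.40 ± 0.09 (SE) and EGR1 by 1.06 ± 0.11 (SE). The genes that switch MAP kinases off rose with them: 10 of 13 were called higher, with a median of 0.94. DUSP5, an ERK phosphatase of the nucleus, had 9.72, 9.76 and 9.63 in AZA, against 7.17, 7.21 and 6.84 in NT. DUSP16 and DUSP10, which act on JNK and p38, rose by 2.14 ± 0.15 (SE) and 1.90 ± 0.09 (SE), and DUSP1 by 1.87 ± 0.13 (SE). The Sprouty genes SPRY1 and SPRY4 were called lower, at -1.18 and -1.04, whereas SPRY2 rose by 0.39.

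Among factors of haematopoietic progenitors 8 of 19 were called lower, beside 21.3% of all genes in the range of their median signal, 6.60. MYB had 7.04, 7.17 and 7.21 in AZA, against 10.16, 10.17 and 10.44 in NT, 8.68-fold lower. GFI1, a repressor needed for granulocytes, had 5.22, 5.57 and 5.53 in AZA, against 7.67, 7.82 and 7.56 in NT. ZBTB16 and BCL11A are zinc finger repressors. ZBTB16, also called PLZF, had 4.73, 5.06 and 5.10 in AZA, against 7.78, 7.61 and 7.67 in NT. BCL11A had 7.07, 7.04 and 6.89 in AZA, against 8.58, 8.74 and 8.71 in NT. MYB, GFI1, ZBTB16 and BCL11A fell by 3.12, 2.24, 2.72 and 1.68. The groups lay apart in each, as the naming rule required of the first 3. GATA2, MEIS1, ERG and SOX4 were among the 11 not called.

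SPI1, which encodes PU.1 of monocytes and granulocytes, had 7.35, 7.47 and 7.42 in AZA, against 6.89, 6.91 and 6.85 in NT, and CEBPB, of macrophages and stress, had 7.64, 7.74 and 7.83 in AZA, against 6.74, 6.64 and 6.66 in NT. CEBPA, of granulocytic progenitors, had 8.89, 9.01 and 8.999 in AZA, against 9.61, 9.73 and 9.21 in NT. IRF8, of monocytes and dendritic cells, fell by 0.78, and NFE2, better known from megakaryocytes, had 4.49, 4.42 and 4.06 in AZA, against 6.03, 6.23 and 6.02 in NT. In all 6 of 13 were called higher and 4 lower. Their median signal of 6.95 lies in the range where 18.9% of all genes were called higher and 21.3% lower.

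Primary granule genes had the lowest median of the 43 lists: 9 of 12 were called lower, with a median of -1.27. ELANE, neutrophil elastase, had 8.11, 8.38 and 8.42 in AZA, against 11.32, 11.32 and 11.04 in NT. AZU1, azurocidin, had 8.28, 8.64 and 8.52 in AZA, against 10.59, 10.63 and 10.53 in NT. In both, each AZA array was below each NT array, as the rule for naming them required. MPO, myeloperoxidase, had 10.40, 10.70 and 10.86 in AZA, against 12.15, 12.001 and 11.99 in NT. RNASE2, a ribonuclease of granules, had 9.11, 9.16 and 9.11 in AZA, against 11.09, 11.11 and 11.18 in NT. BPI, which binds bacterial lipopolysaccharide, fell by 1.37. CTSG, DEFA4 and PRSS57 were not called. AZU1, PRTN3 and ELANE lie side by side on chromosome 19, and CFD, their next neighbour in the list of measured genes, also fell at least 2-fold.

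Monocyte and macrophage genes did not fall as a whole: 10 of 25 were called higher and 2 lower, with a median of 0.17. Their median signal of 6.27 lies in the range where 18.9% of all genes were called higher and 21.3% lower. Beside ITGAX and CLEC7A, MPEG1, a pore former of macrophages, had 11.69, 11.53 and 11.49 in AZA, against 10.30, 10.35 and 10.61 in NT. CD80 and CD86, which costimulate T cells, rose by 0.78 and 0.75. VCAN, of classical monocytes, fell by 0.92. CD14, CD163, MRC1, ITGAM and S100A8 were not called.

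KIT, the stem cell factor receptor, had 6.91, 7.14 and 6.60 in AZA, against 8.37, 8.66 and 8.68 in NT. FLT3 had 5.33, 4.82 and 4.87 in AZA, against 6.32, 6.32 and 6.54 in NT. CSF2RA, the GM-CSF receptor chain, had 9.13, 9.12 and 9.11 in AZA, against 7.86, 7.86 and 7.79 in NT. KIT and FLT3 thus fell, by 1.68 and 1.39, while CSF2RA and its partner CSF2RB rose by 1.29 and 1.10.

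Among chemoattractant receptors, C5AR1, for the complement fragment C5a, had 8.76, 8.88 and 8.71 in AZA, against 4.51, 4.14 and 4.28 in NT, 22.2-fold higher. CXCR2, for interleukin-8, had 5.70, 5.88 and 5.59 in AZA, against 7.11, 7.17 and 6.91 in NT. CCR1 fell by 1.22. FPR1, LTB4R, CXCR4 and CX3CR1 rose by 0.43 to 0.65. CXCL8 and its receptor CXCR2 therefore changed in opposite directions. SELPLG, the ligand that rolls on selectins, had 5.68, 5.79 and 5.98 in AZA, against 7.78, 7.45 and 7.45 in NT. The integrin chains ITGA4 and ITGA6 fell by 0.86 and 0.72.

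Of 16 surface checkpoints 4 rose and 3 fell. Their median signal of 5.66 lies in the range where 18.9% of all genes were called higher and 21.3% lower. CD101, an inhibitory receptor of myeloid cells, had 10.16, 10.23 and 10.16 in AZA, against 6.07, 5.69 and 5.95 in NT. HAVCR2, which encodes TIM-3, a receptor carried by leukaemic stem cells, had 7.74, 7.64 and 7.79 in AZA, against 4.77, 4.83 and 4.96 in NT. VSIR and SIRPA rose by 1.04 and 0.65, while CD47, the ligand of SIRPA, and CD276 fell by 0.31 and 0.23. CD274, which encodes PD-L1, was not called.

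In HLA class II 8 of 12 genes were called lower, with a median of -0.54. HLA-DRA had 8.63, 8.85 and 8.78 in AZA, against 9.79, 9.64 and 9.86 in NT. CIITA, the master activator of class II, had 5.84, 6.11 and 5.94 in AZA, against 6.74, 6.70 and 6.75 in NT. In class I 4 of 15 were called higher, beside 22.3% in the brightest range, where their median signal of 8.78 lies: HLA-E (0.77, SE 0.11), HLA-F (0.54), HLA-C (0.34) and B2M (0.25), and NLRC5, their activator, lower (-0.40, SE 0.09). The HLA-C arrays overlapped, and its call was lost in 7 of 16 alternatives. A difference between the classes was not tested. HLA genes are polymorphic and alike, which makes probe signals less certain.

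Cell death genes gave rises on both the killing and the protecting side. BMF, a BH3-only killer, had 8.30, 8.88 and 8.68 in AZA, against 6.32, 6.11 and 5.97 in NT. PMAIP1, which encodes NOXA, had 10.64, 10.42 and 10.31 in AZA, against 8.20, 8.43 and 8.36 in NT. BBC3, which encodes PUMA, rose by 0.55 ± 0.11 (SE), and BCL2L11 and BID fell by 0.34 and 0.22. Of the guardians, BCL2 had 9.17, 9.16 and 8.75 in AZA, against 10.48, 10.49 and 10.60 in NT. BCL2A1 had 6.38, 6.26 and 6.56 in AZA, against 4.30, 4.86 and 4.46 in NT. MCL1 rose by 0.67 ± 0.09 (SE). NOXA binds the product of MCL1, and both genes rose. The death ligand TNFSF10, or TRAIL, had 6.29, 6.35 and 6.30 in AZA, against 9.42, 9.31 and 9.43 in NT, while its receptor TNFRSF10B had 9.24, 9.35 and 9.45 in AZA, against 7.85, 7.999 and 7.78 in NT.

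Of 22 genes of cell cycle control 7 were called higher and 4 lower, beside 22.3% and 27.0% in the brightest range. The median signals of these genes, 8.62, and of the mitosis genes below, 9.29, lie in that range. CDKN1C, a kinase inhibitor, had 7.28, 7.38 and 7.54 in AZA, against 6.22, 6.25 and 6.05 in NT. CDKN1A, which encodes the inhibitor p21, had 6.52, 6.41 and 6.32 in AZA, against 5.41, 5.30 and 5.42 in NT. CCNG2 had 9.32, 9.13 and 9.11 in AZA, against 7.93, 8.03 and 8.15 in NT. CDK4 had 9.03, 9.38 and 9.45 in AZA, against 10.15, 10.05 and 9.90 in NT. In DNA replication 13 of 25 genes were called lower, with a median of -0.28, led by UNG (-1.04, SE 0.10), GINS2 (-0.76) and GINS1 (-0.76), and CDT1 was called higher (0.44). Of 22 mitosis genes CDC25C and CDC25B were called higher and MAD2L1, CDC25A, KIF20A and BUB1 lower. In signalling of DNA damage ATR fell by 0.57, and ATM, CHEK1, CHEK2 and WEE1 were not called. Repair genes were lower in 9 of 17 cases, among them LIG3 (-0.78), WRN (-0.64) and PARP1 (-0.51), and the end-joining ligase LIG4 was higher (0.69).

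Of 38 autophagy and lysosome genes 19 were called higher and 1 lower, with a median of 0.28. Their median signal of 8.65 lies in the brightest range, where 22.3% of all genes were called higher and 27.0% lower. SQSTM1, the cargo receptor p62 and also an NRF2 target, had 11.44, 11.44 and 11.35 in AZA, against 9.66, 9.63 and 9.35 in NT. TFE3, a factor of lysosome genes, had 8.84, 8.90 and 8.96 in AZA, against 7.66, 7.59 and 7.29 in NT. GABARAPL1, which coats autophagosomes, rose by 1.48 ± 0.20 (SE), and the lysosomal protease CTSD by 0.87 ± 0.07 (SE). Of 22 glycolysis genes 9 were called lower, LDHA (-0.81, SE 0.07) and GPI (-0.73, SE 0.08) first, and 4 higher. Their median signal of 8.46 lies in the brightest range, where 27.0% of all genes were called lower and 22.3% higher. The 4 were VEGFA (1.66, SE 0.08), ADM (1.63, SE 0.12), SLC2A3 (0.43) and PKM (0.32), of which the first pair encode secreted factors and no enzyme.

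**Figure D3:**
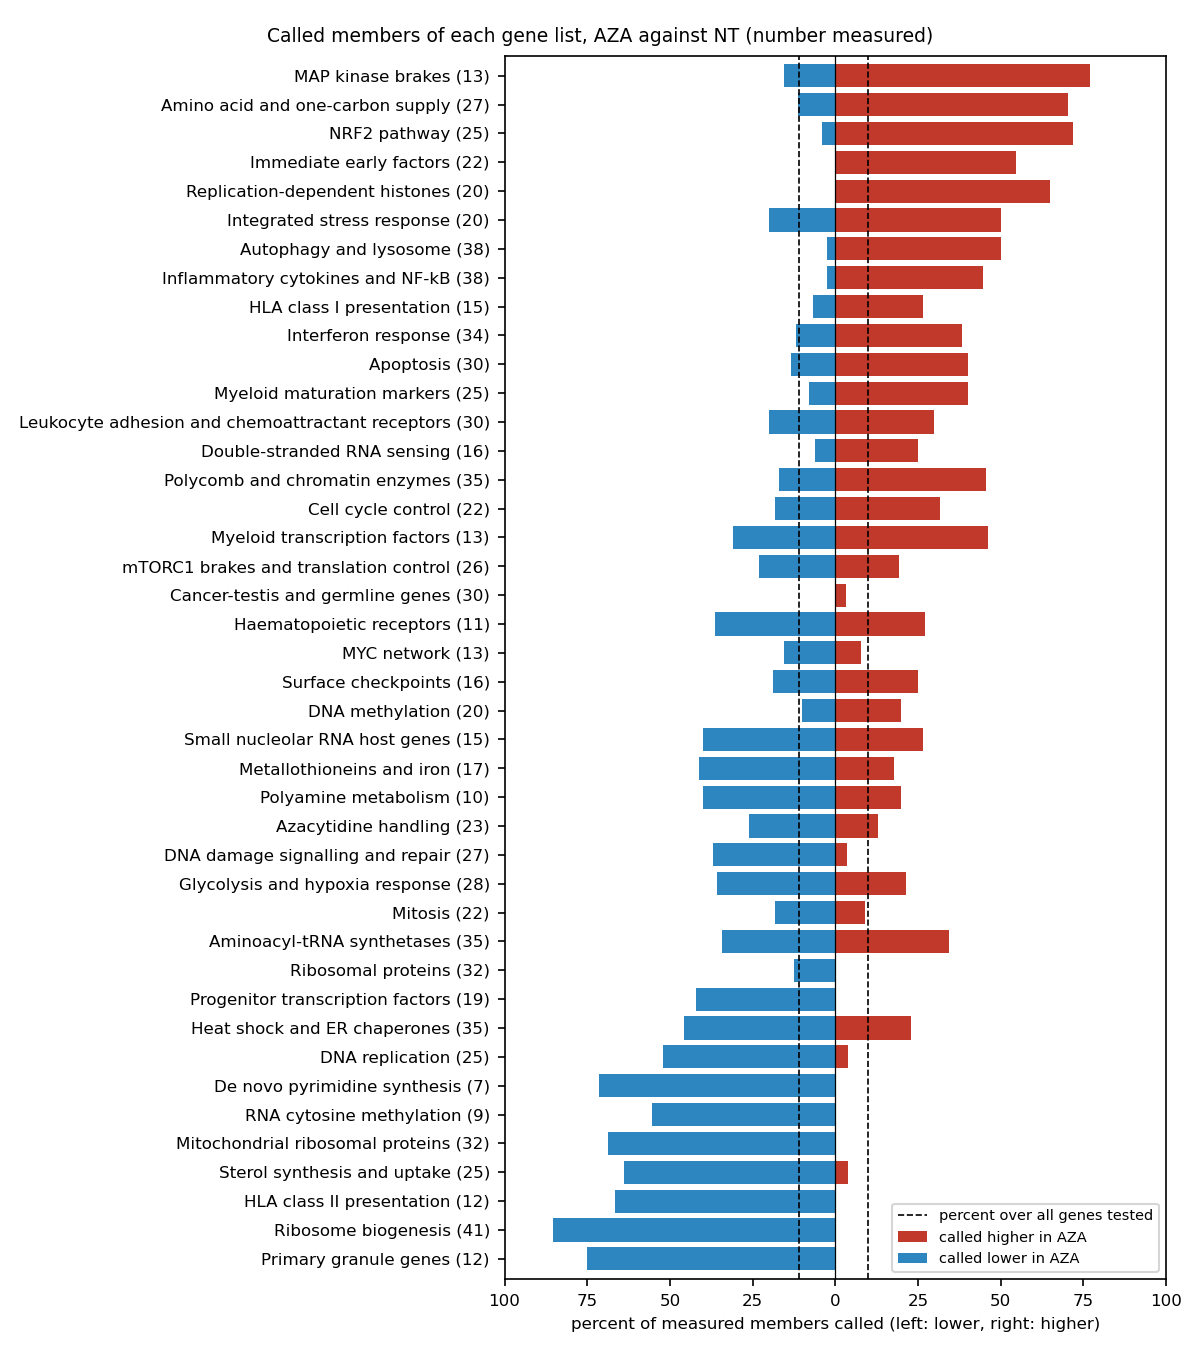
Percent of measured members called higher (right) and lower (left) with AZA for each gene list shown, with the number measured in brackets and dashed lines at 9.79% and 11.1%, the shares over all genes tested. Lists run from the highest median change at the top to the lowest at the bottom.

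Small RNA genes were called too. Mature sequences of 4 of the named microRNA genes are shown with the seed, bases 2 to 8, in capitals, since the seed sets which messages they pair with; they are RefSeq's, build GRCh38.p14. The first pair come from genes that rose and the second pair from genes that fell.
hsa-miR-628-5p, chr15:55372991-55373012, minus strand: aUGCUGACauauuuacuagagg
hsa-miR-421, chrX:74218392-74218414, minus strand: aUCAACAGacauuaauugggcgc
hsa-miR-4521, chr17:8186948-8186969, plus strand: gCUAAGGAaguccugugcucag
hsa-miR-33b-5p, chr17:17813897-17813916, minus strand: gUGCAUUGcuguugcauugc
The seeds differ from each other, and no seed is shared among the named microRNA genes with a sequence. MIR628 had 5.64, 5.53 and 5.48 in AZA, against 3.45, 3.69 and 3.62 in NT. MIR421 had 5.45, 5.44 and 5.19 in AZA, against 4.49, 4.48 and 4.17 in NT. Both of these were higher in every AZA array. MIR4521 had 6.10, 6.37 and 6.33 in AZA, against 8.31, 8.13 and 8.53 in NT. MIR33B, which lies inside SREBF1, the gene of a sterol regulator, had 6.98, 6.87 and 7.25 in AZA, against 7.67, 7.91 and 7.97 in NT, while its host SREBF1 was not called (0.18, SE 0.07). Such probes can also read the precursor or the host transcript, so these signals are of the gene and not of the mature RNA. By order of gene starts MIR628 adjoins CCPG1 and PIERCE2 on chromosome 15, and all 3 rose at least 2-fold. Whether these genes overlap was not examined. Of 1058 microRNA genes 23 were called higher and 15 lower. Their median signal was 3.52, at the border of the dimmest ranges, in which 1.23% and 3.24% of all genes were called.

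Of 313 small nucleolar RNAs 36 were called higher and 29 lower. Their median signal was 6.26, in the range where 40.2% of all genes were called. The 5 largest rises were all of the H/ACA kind, which guide pseudouridylation, and the 5 largest falls all of the C/D kind, which guide ribose methylation. SNORA71B had 10.08, 9.81 and 10.29 in AZA, against 9.03, 8.60 and 8.64 in NT. SNORD77 had 5.40, 5.45 and 5.34 in AZA, against 6.95, 6.27 and 6.93 in NT. The host gene GAS5 had 11.94, 11.84 and 11.98 in AZA, against 11.33, 10.96 and 11.28 in NT, whereas the hosts SNHG4 and SNHG15 fell by 1.53 and 0.72; SNORD77 lies in GAS5, and they moved in opposite directions.

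Genes with large changes had neighbours with large changes more often than other genes did. Of the 502 genes at least 2-fold higher 61 (12.2%) had an adjacent measured gene that was also at least 2-fold higher, against 3.33% of other genes. Of the 406 at least 2-fold lower 36 (8.87%) had such a neighbour that was lower, against 2.77% of other genes. The longest run of rises was CLEC7A, OLR1, TMEM52B and GABARAPL1 on chromosome 12, and the longest run of falls AZU1, PRTN3, ELANE and CFD on chromosome 19. Neighbours were taken by order of start alone, so a gene that lies inside another could count as its neighbour. The other genes include the dimmest of the 5 bins of signal, in which 0% were called at least 2-fold in either direction. The groups were not matched for signal. These shares are a description.

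Promoters were compared by the direction of change, with the features counted on both strands over the same 300 bases for 355 genes at least 2-fold higher, 305 at least 2-fold lower and all 19561 with a promoter. The C/EBP and ATF element was in 6.48% of those higher, 1.97% of those lower and 3.18% of all. CACGTG, the E-box that MYC and other factors bind, was in 5.63% of those higher, 17.0% of those lower and 8.12% of all. Bright genes that were not called held it in 10.7%. In the 29 promoters of ribosome biogenesis genes called lower the E-box was in 34.5%, the NRF1 site in 31.0% and the ETS site in 27.6%. TGACNNNGC, the core of the antioxidant element, was in 13.8% of those higher, 16.1% of those lower and 14.2% of all, and 4 of 10 promoters of NRF2 targets called higher held it. Over all called genes the shares lay closer together: the C/EBP and ATF element was then in 3.15% of promoters of genes called higher, and the E-box in 9.23% of those called higher and 12.7% of those called lower. The C/EBP and ATF match overlapped an E-box in 6 promoters and a CCAAT box in 6, and the E-box overlapped the antioxidant core in 109.

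CpG-rich promoters, with an observed over expected CpG of at least 0.6, made up 69.3% of those at least 2-fold higher, 77.0% of those at least 2-fold lower and 57.6% of all. Genes in the upper signal range that were not called had 87.1%, so large changes in either direction had fewer CpG-rich promoters than bright genes without a call. CCAAT was in 38.6% of those higher, 37.4% of those lower and 36.1% of all. The NRF1 site and CCGGAAGT, the ETS site, were in 8.73% and 3.38% of those higher, 11.5% and 3.61% of those lower and 10.4% and 5.29% of all.

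**Figure D4:**
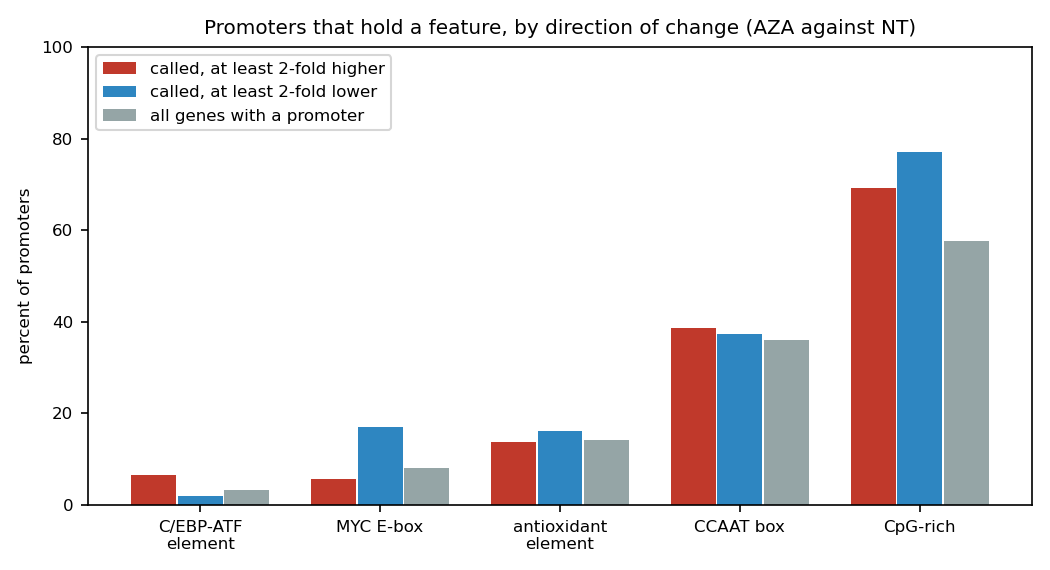
Percent of promoters, 300 bases each, that hold a motif or are CpG-rich, for genes called and at least 2-fold higher with AZA (red), at least 2-fold lower (blue) and all genes with a promoter (grey). The E-box is in 17.0% of promoters of genes that fell, 5.63% of those that rose and 8.12% of all.

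The same drug was also measured on top of APR-246, in 6 arrays that share none with AZA or NT. All groups entered the same linear model, so APR-AZA against APR shares each gene's variance estimate with AZA against NT. The calls of these comparisons are therefore not independent. In APR-AZA against APR, 2659 genes (9.45%) were called higher and 3154 (11.2%) lower. Of the 2754 genes called higher in AZA against NT, 2720 (98.8%) changed in the same direction there and 2166 (78.6%) were called. Of the 3124 called lower, 3079 (98.6%) had the same direction and 2601 (83.3%) were called. Among changes of at least 2-fold all 502 rises and all 406 falls kept their direction, and 499 and 401 were called again.

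The sizes are given side by side, and the 2 comparisons share no array but do share the variance estimate of each gene. SLC7A11 rose by 3.62 in APR-AZA against APR and by 3.86 in AZA against NT, ASNS by 3.08 and 2.99, and IL1B by 3.27 and 3.38. MYB fell by 3.15 and 3.12, PRTN3 by 2.39 and 2.52, and UTP20 by 1.59 and 1.55. Across all genes the changes correlated at 0.91 and across the 5878 called ones at 0.98, which describes genes and not replicates. Tested directly, 0 genes differed between the 2 changes at an adjusted p under 0.05 in limma. An unadjusted p under 0.05 was reached by 990 of 28125, fewer than the share of 0.05 that passes where no gene differs. This does not show that the changes are equal, since the SE of such a difference is wider than that of either change. NQO1, a quinone reductase and target of NRF2, came nearest: its change was 1.75 with APR-246 present and 2.66 without, a difference of -0.91 ± 0.13 (SE) with an adjusted p of 0.40. Over the alternatives the lowest adjusted p of any gene for this difference ran from 0.0512, with trended and robust moderation, to 1. LOC101928156 had a change of -0.03 in APR-AZA against APR and of -1.75 in AZA against NT, and MIR4441 of 0.07 and -0.98, neither difference passing.

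**Figure D5:**
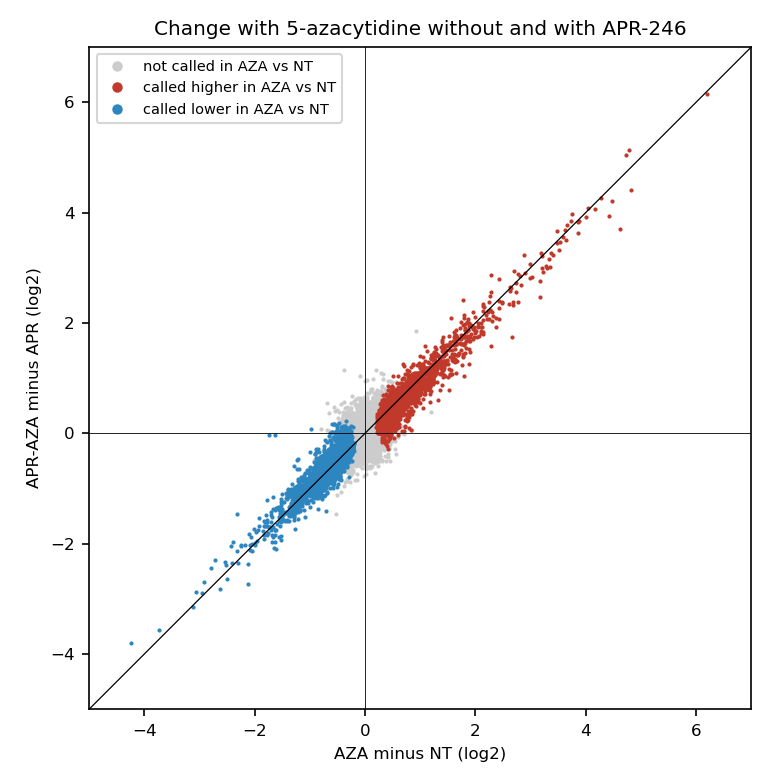
Change of each of 28125 genes in AZA against NT (horizontal, log2) and in APR-AZA against APR (vertical, log2), with the line of equal change. Of the genes called higher (red) 98.8% and of those called lower (blue) 98.6% lie on the same side of 0 in both.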

How the data were processed

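RNA of SKM1 cells was measured on 12 Affymetrix whole-transcript arrays, of which 6 hold AZA and NT. The deposited values are log2 signals made by the authors, and the submitters' processing notes name RMA and Partek without versions; for the array's annotation, a genome build is not given in the sources used here. In the table are 29413 rows, and 28129 of them carry 1 gene symbol in GEO's platform annotation. The brightest row of a repeated symbol was kept, which left 28125 genes, and 28079 of these matched the RefSeq gene table. No column lay outside the 12 samples, and the values of any 2 arrays were identical for at most 0.0952% of genes.

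Group means of all 12 arrays entered 1 linear model with moderated variances (limma 3.58.1, R 4.3.3, 8 residual degrees of freedom), with Benjamini-Hochberg adjustment over all genes. Calls needed an adjusted p under 0.05, and a large change was at least 2-fold. SE is the standard error of a log2 difference. Precision is limited by the number of arrays. The procedure was tested on simulated data. Tables, promoters and figures were made with Python 3.11.15, pandas 2.3.3 and matplotlib 3.10.9.

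The comparison, the gene lists and the tests were chosen with earlier results of these data known. Genes were named by rule: the 25 largest changes each way whose groups do not overlap, the 10 largest each way among bright genes, up to 4 per list and role, 5 per direction for each class of non-coding RNA, and a fixed set. Other members of the lists and markers that are named were chosen after their values were seen. Promoters and microRNAs are RefSeq's, and genes and microRNAs without an entry are named only. Alternatives covered the filter on dim genes, normalization, centring, moderation, arrays fitted, weights, threshold, replicate number and each array left out. A gene list and some genes are not reported here.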

Additional observations from a re-analysis of the deposited data

Results flagged for a closer look

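Rows without a gene symbol, which entered no comparison above, also changed. Of 1284 such rows 237 (18.5%) were called between AZA and NT, 110 higher and 127 lower, against 20.9% of the genes tested. Among them 28 were higher and 15 lower by at least 2-fold. They are unnamed here. Single arrays within groups of 3 were not tested gene by gene for outlying values.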

How the results depend on the processing

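Counts of calls stayed within 1.5 times the reported ones under all alternatives run. Leaving out 1 array at a time gave 2319 to 2517 genes higher and 2730 to 2892 lower, and 473 to 523 higher and 381 to 433 lower by at least 2-fold. Centring on the brightest 40% of genes was chosen after seeing the data. Calls higher made up 43.7% to 48% of all calls over the settings. Of 332 called named genes 312 kept their call in all 16 settings other than the stricter threshold, and none turned direction; those that lost it in 1 or more were CCL3, DNMT3B, DUT, EGLN3, EIF4G1, EZH2, HLA-C, IFIH1, IFNL2, IRF9, MAGEA4, PPM1D, RING1, RPL6, RPS14, RRAGB, SAMHD1, SLC30A1, YBX1 and ZBTB4. DNMT1, IFI27, MAGEA1 and WEE1 became called in some settings.

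Same-numbered AZA and NT arrays deviated together at r = -0.04, 0.13 and -0.25, so the numbers were not taken as pairs, and only AZA array 2 correlated best with its own number. With the replicate number as a block 2533 genes were called higher and 2912 lower.

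Promoter shares moved when all called genes replaced those with at least a 2-fold change, and the cause was not tested. For genes called higher the share was 77.0% CpG-rich, 3.15% with the C/EBP and ATF element, 9.23% with the E-box, 13.3% with the NRF1 site, 7.86% with the ETS site and 7.25% with the TATA box. For genes called lower it was 83.7% CpG-rich, 12.7% with the E-box, 16.2% with the NRF1 site and 8.79% with the ETS site.

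Uncalled changes near 0 turned sign in 5 genes. With quantile normalization repeated RRM1 was 0.0233, RRM2 -0.0456 and EIF2AK2 0.0069, and with median centring RRM2 was -0.0162. Leaving out 1 array at a time gave -0.0584 to 0.0233 for RRM1, -0.0290 to 0.0286 for RRM2, -0.0942 to 0.0619 for EIF2AK2, -0.1587 to 0.0096 for CDA and -0.0146 to 0.2224 for ABCG1. The tested difference between the changes with and without APR-246 gave 0 calls in limma in every setting that could fit it. This leaves out AZA and NT arrays alone. The lowest adjusted p in limma was 0.0512 to 1, and 667 to 1395 genes had an unadjusted p under 0.05. Each of these counts is under the share of 0.05 that passes where no gene differs, which does not show that the changes are equal. Dim signals limit what could be called.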
